A study of Mus musculus with 22 samples.

Results

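The 33 genes described here are the classical genes of glycolysis and of the hypoxia response, measured by RNA-seq in organoids grown from the duodenum of wild type adult mice and exposed to cold atmospheric plasma (CAP), an ionised gas that delivers reactive species to cells and their medium. They were chosen by name from 52636 deposited genes: 2 carriers of glucose or lactate, 13 glycolytic enzymes, 3 regulators of glycolytic or pyruvate flux, 3 genes of oxygen sensing and 12 further targets of hypoxia signalling. This and the other gene lists were chosen with earlier results of these data known. Their contrasts with all genes, and with each other, are therefore descriptions and not independent tests. The names were found on 34 deposited rows, because Aldoa occurs on 2 rows, and counts below use the row of the protein-coding gene ENSMUSG00000030695.

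Glucose enters the cell through facilitative carriers, is phosphorylated by hexokinases and is broken down by a chain of cytosolic enzymes to pyruvate, which is either oxidised in mitochondria or reduced to lactate and exported. When oxygen is low, prolyl hydroxylases stop marking the HIF alpha subunits for destruction, and HIF then binds hypoxia response elements and raises transcription of glucose carriers, glycolytic enzymes, angiogenic factors and regulators of mitochondria. In the gut, oxygen is low towards the lumen.

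The 22 libraries fall into 7 groups, all from wild type cultures, with day 3 after replating as the endpoint in the study's design. The Untreated group holds 4 organoid lines, each grown from 1 CD1 mouse, and each of the 6 treated groups holds lines 1, 2 and 4. In the Direct 30 min and Direct 24 h groups the plasma jet (50 W for 60 s) was applied to the culture at day 1, and the medium was exchanged after 30 min or 24 h. Elsewhere the study writes of Direct 30 min as an early time, 30 min after treatment. Whether those libraries were collected at day 3 is therefore not certain, and culture age may differ from Untreated. In the Indirect groups, untouched organoids received medium from another plasma-treated culture, and in the PAM groups (plasma-activated medium) they received medium that had been treated without organoids. In the Indirect day 1 and PAM day 1 groups this medium was given at day 1 and replaced after 24 h, so that the last day was spent in fresh medium, whereas in the Indirect day 2 and PAM day 2 groups it was given at day 2 and was still present at collection. These days are as the study describes them for its libraries. It also describes the day 2 medium as plasma-treated at day 1, so that medium was 24 h old when given. The age of the medium and the day it was given therefore cannot be told apart. No group received aged or conditioned medium without plasma. The sample labels give 30 min for the libraries called day 1 here and 24 h for those called day 2, so the grouping of the day 1 libraries with Direct 24 h below rests on the study's description. Lines 1 and 2 (male, passages 12 and 14) and lines 3 and 4 (female, passage 4 in the labels) differ in sex and passage together, and line 3 is present only in Untreated.

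Each value is the number of reads assigned to a gene, scaled by the authors to 20 M reads a library (CP20M). The library totals lay between 20007540 and 20016513, so the values are not divided by gene length. The depth before scaling, estimated from the steps between low values, was 20.0 to 28.68 M reads, so the members, whose group means all lay far above the value of 1 read, were limited by the spread between lines rather than by counting. The labels call the cells stem cells. The summed value of 5 stem cell markers in Untreated was 32557 to 38876, beside 105845 to 125096 for 8 enterocyte markers and 75553 to 132265 for 5 goblet markers, and 10 genes of blood, vessel, muscle and connective tissue summed to 30 to 77. The libraries thus hold mixed intestinal epithelium. The untreated libraries of lines 1 and 2 deviated more with the other of these lines than with their own. Across genes, the deviation of untreated line 1 had a median correlation of 0.08 with treated line 1 and 0.54 with treated line 2. That of untreated line 2 had 0.13 with treated line 2 and 0.35 with treated line 1. Fits with the line as a block rest on those labels, whereas the fits reported first use these libraries only as Untreated. In bulk RNA, fewer cells of a type and less RNA per cell cannot be told apart.

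Differences are log2 fold changes of the value plus 1, tested with limma across all genes. "Past the threshold" means a Benjamini-Hochberg adjusted p under 0.01 with a log2 fold change of at least 1, as the study set it, and "rose" or "fell" is kept for those. A second rule, adjusted p under 0.05 with no minimum fold, is named where used. All 33 members were tested in every comparison. Counts from fits with the line as a block are given without the share over all genes. They show which calls moved and are not a result about the members. The 7 comparisons with Untreated share its 4 libraries and are not independent of each other.

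On the scale of the value per kilobase of exon, the members spanned a wide range in Untreated. The trunk of glycolysis stood highest, with medians of 6801 for Ldha (lactate dehydrogenase), 6772 for Aldoa (aldolase), 5343 for Pkm (pyruvate kinase), 4898 for Tpi1 (triosephosphate isomerase) and 4086 for Pgk1 (phosphoglycerate kinase). The lowest were P4ha2 at 34.2, Pfkfb3 at 68.6, Hk1 at 74.5 and P4ha1 at 87.7 per kilobase. P4ha2, Pfkfb3 and Hk1 are also among the members that rose. Counts of 8 members are uncertain because over 10% of the 100-base windows (the read length) in their transcripts also occur in transcripts of other genes, chiefly pseudogenes. The shares were 51.7% for Pgk1, 33.9% for Pgam1, 24.6% for Bnip3, 20.9% for Gapdh, 20.4% for Eno1, 14.0% for Bnip3l, 12.3% for Pkm and 10.8% for Ankrd37. Ldha, Slc2a1, Hk1 and Tpi1 had under 1% and Vegfa, Pfkfb3, Slc16a3, Hk2, Pdk1, P4ha2 and Kdm3a had 0%.

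RefSeq promoters of build GRCm38.p6 (250 bases before to 50 after the start) were at hand for 31 of the 33 genes. They were searched on both strands for the core of the hypoxia response element, ACGTG or GCGTG, and overlapping matches on opposite strands were counted separately. At least 1 match was found for 29 of 31 members (93.5%), compared with 46.7% of 27025 genes, and at least 2 for 71.0% compared with 22.9%. Gpi1 and Tpi1 were the members without a match. A gene counted if any of its promoters matched. Per promoter, the shares were 79.2% of 48 for the members and 43.8% of 32851 for all genes. The members were chosen as known genes of these pathways, so this contrast is not a test. Matches are a description of these letters and not of binding. The promoters below let members that were higher after CAP (Slc2a1, Hk1, Pfkfb3, P4ha2 and Vegfa) be read beside members that were lower (Pdk1, Bnip3 and Kdm3a), printed 5′ to 3′ on the gene's strand with each core, on either strand, in capitals. Where RefSeq lists several starts, the promoter with the most cores is shown, and for Vegfa both are.
Slc2a1 promoter, chr4:119108495-119108794, plus strand: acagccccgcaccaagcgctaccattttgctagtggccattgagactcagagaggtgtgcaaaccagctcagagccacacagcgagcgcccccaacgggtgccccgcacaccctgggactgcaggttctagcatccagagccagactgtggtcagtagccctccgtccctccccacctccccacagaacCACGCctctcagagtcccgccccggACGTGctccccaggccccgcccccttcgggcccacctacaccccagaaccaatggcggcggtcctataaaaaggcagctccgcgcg
Hk1 promoter, chr10:62340372-62340671, minus strand: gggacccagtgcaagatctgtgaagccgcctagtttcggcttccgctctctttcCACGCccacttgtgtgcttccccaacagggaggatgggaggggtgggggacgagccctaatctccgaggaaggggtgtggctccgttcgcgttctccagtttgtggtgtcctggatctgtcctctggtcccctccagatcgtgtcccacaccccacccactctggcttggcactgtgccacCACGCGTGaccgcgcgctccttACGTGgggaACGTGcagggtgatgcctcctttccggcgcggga
Pfkfb3 promoter, chr2:11502041-11502340, minus strand: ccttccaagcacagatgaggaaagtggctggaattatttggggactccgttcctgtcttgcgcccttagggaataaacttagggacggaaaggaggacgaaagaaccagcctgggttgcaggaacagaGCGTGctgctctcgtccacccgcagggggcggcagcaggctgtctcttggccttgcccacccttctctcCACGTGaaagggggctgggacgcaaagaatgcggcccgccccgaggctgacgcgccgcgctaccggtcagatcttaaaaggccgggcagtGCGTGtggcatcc
P4ha2 promoter, chr11:54100674-54100973, plus strand: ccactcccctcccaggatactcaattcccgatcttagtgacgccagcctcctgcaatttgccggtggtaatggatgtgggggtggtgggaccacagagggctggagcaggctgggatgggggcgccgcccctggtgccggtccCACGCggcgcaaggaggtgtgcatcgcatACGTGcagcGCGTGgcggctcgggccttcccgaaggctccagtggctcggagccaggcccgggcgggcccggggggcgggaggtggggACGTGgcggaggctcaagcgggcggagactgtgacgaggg
Vegfa promoter, chr17:46032328-46032627, minus strand: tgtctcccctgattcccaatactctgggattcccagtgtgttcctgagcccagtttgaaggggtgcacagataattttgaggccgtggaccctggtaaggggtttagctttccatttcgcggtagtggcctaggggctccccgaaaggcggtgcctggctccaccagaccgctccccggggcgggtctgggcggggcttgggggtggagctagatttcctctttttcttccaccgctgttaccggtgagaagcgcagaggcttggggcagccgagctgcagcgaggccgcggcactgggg
Vegfa promoter of a second start, chr17:46025114-46025413, minus strand: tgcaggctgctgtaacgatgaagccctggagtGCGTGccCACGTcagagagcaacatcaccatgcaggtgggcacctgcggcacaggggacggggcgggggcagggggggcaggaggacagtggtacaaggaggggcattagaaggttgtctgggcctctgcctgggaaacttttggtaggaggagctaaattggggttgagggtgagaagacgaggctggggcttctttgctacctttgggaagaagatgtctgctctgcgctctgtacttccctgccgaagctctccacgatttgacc
Pdk1 promoter, chr2:71872974-71873273, plus strand: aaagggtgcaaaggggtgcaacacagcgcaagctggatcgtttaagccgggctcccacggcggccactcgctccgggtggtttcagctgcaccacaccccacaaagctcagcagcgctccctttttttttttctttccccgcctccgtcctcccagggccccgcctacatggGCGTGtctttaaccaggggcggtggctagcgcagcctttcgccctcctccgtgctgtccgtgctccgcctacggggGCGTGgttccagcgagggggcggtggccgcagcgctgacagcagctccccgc
Bnip3 promoter, chr7:138909457-138909756, minus strand: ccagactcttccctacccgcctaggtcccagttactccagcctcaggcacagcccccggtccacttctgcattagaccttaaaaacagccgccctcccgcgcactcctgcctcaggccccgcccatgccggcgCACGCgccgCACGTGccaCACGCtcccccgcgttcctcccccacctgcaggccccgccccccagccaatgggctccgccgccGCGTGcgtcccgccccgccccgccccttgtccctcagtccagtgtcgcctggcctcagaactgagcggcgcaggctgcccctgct
Kdm3a promoter, chr6:71632868-71633167, minus strand: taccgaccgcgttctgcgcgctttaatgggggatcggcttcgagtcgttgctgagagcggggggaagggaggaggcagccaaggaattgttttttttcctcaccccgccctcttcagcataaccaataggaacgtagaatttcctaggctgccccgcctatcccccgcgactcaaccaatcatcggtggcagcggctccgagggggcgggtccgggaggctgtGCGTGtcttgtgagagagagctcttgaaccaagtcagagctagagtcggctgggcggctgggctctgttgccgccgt
The cores number 2 in Slc2a1, 5 in Hk1, 4 in Pfkfb3, 4 in P4ha2, 0 and 2 in the promoters of Vegfa, 2 in Pdk1, 5 in Bnip3 and 1 in Kdm3a. Because 29 of 31 members hold at least 1 core, members picked from either direction would nearly always carry them. These counts therefore do not compare the 2 directions. The promoters not shown hold fewer, with 0 in a second of Hk1, 1 in a second of Pfkfb3, 0 in a second of Pdk1 and 0 in each of 2 others of Kdm3a.

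Most of the members that passed the threshold did so after medium that was still present at collection. Against Untreated, 7 of 33 members rose in Indirect day 2 and 7 in PAM day 2, and none fell past the threshold in either group. The risen genes common to both lists were Slc2a1, Slc16a3, Hk1, Pfkfb3, Vegfa and P4ha2, with Hk2 in Indirect day 2 and Pfkp in PAM day 2 as the remaining member of each. In Indirect day 2 the share of members that rose was 21.2%, compared with 6.20% of all 17860 genes tested, and 5.71% of all genes fell. In PAM day 2 it was 21.2% compared with 6.82%, and 10.5% of all genes fell. By the second rule, 14 members (42.4%) were higher and 2 lower in Indirect day 2, beside 20.3% and 23.5% of all genes, and 16 (48.5%) were higher and 2 lower in PAM day 2, beside 18.5% and 29.1%. The median log2 fold change of the members was 0.39 in Indirect day 2 and 0.50 in PAM day 2, whereas that of all genes was -0.01 and -0.12. With the line as a block, 4 members rose and 1 fell in Indirect day 2, since Slc16a3, Pfkfb3 and P4ha2 no longer passed and Pdk1 did, whereas PAM day 2 kept 7 that rose and 0 that fell. Without Indirect day 2 line 4, 4 members rose in that group. Without the untreated libraries of lines 1 and 2, 5 members rose in Indirect day 2 and 0 in PAM day 2, where limma called 1 gene of all, with log2 fold changes of the 7 members between 1.14 and 2.58 and adjusted p from 0.013 to 0.026.

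**Figure D1:**
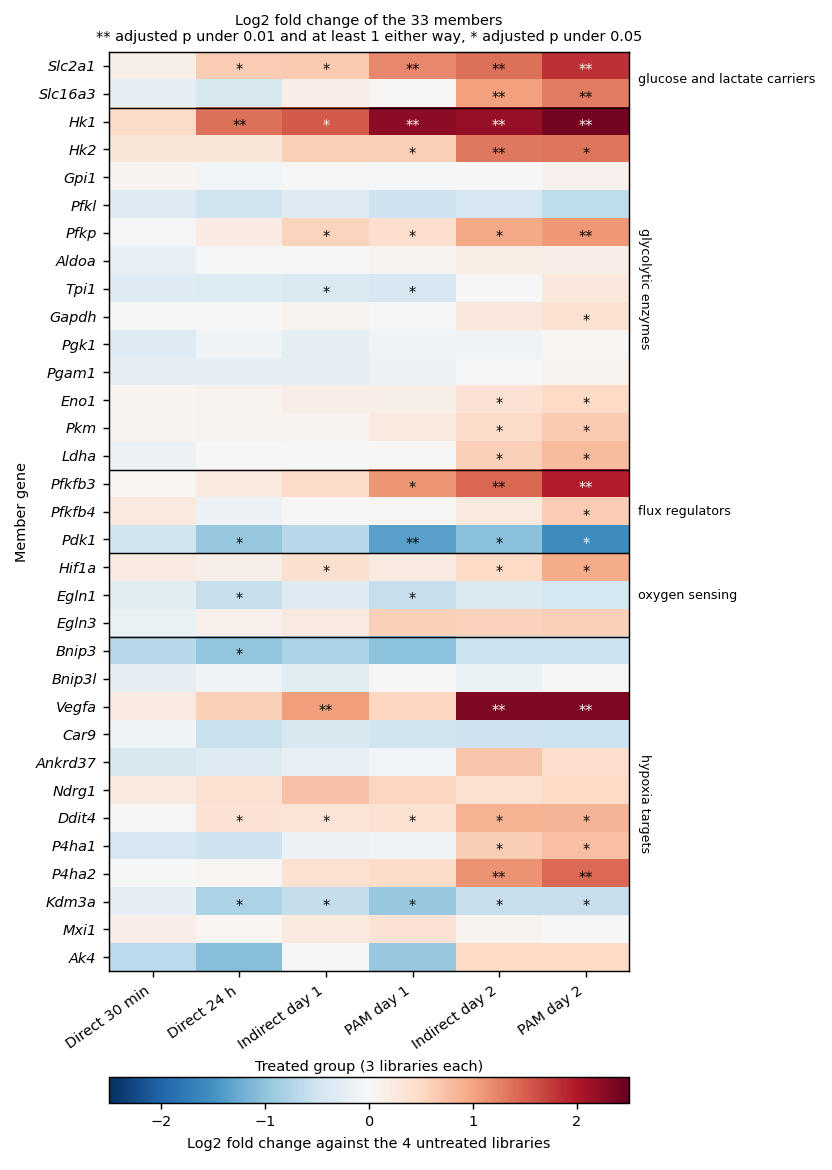
Log2 fold change against Untreated of the 33 members (rows, ordered by role) in the 6 treated groups (columns), with a double star for members past the threshold and a single star for those at an adjusted p under 0.05 only. The 2 columns of medium given at day 2 hold 7 risen members each, Hk1 is positive in every column and past the threshold in 4, and Pdk1 and Kdm3a are negative in every column.

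Fewer members passed after treatment at day 1. Direct 24 h, Indirect day 1 and PAM day 1 were pooled as 24 h of CAP from day 1, taken here as the study's main comparison. The study names direct and indirect treatment for 24 h without listing the libraries pooled, and it tested with edgeR. The counts here are therefore not the study's own. By limma, 1 of 33 members rose (Hk1) and 0 fell. At an unadjusted p under 0.05 stood 14 members, beside 8154 of all 18490 genes. Over all 18490 genes, 4.27% rose and 2.07% fell. By the second rule 6 members (18.2%) were higher and 8 (24.2%) lower, close to the 14.8% and 18.7% of all genes. The members' median log2 fold change was -0.001, beside -0.05 for all genes. These 9 libraries come from 3 lines used 3 times each, so their p-values do not stand for 9 mice. With the line as a block, 4 members passed, since Pdk1 (log2 fold change -1.20, adjusted p = 0.0021), Bnip3 (-1.16, adjusted p = 0.0058) and Ak4 (-1.38, adjusted p = 0.0096) joined Hk1. The share of all genes in that fit is not given, so the larger count is not a result about the members. Without the untreated libraries of lines 1 and 2, 0 members passed with or without the block, and Hk1 stood at 1.70 (adjusted p = 0.022) without it.

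Taken one by one, the treatments at day 1 gave 0 members past either rule in Direct 30 min by limma (all genes 0.00564% by the threshold and 0.00564% by the second rule). There, 5 members had an unadjusted p under 0.05, beside 4415 of all 17731 genes. In Direct 24 h, 1 member rose (all genes 1.25% higher, 0.917% lower), and by the second rule 3 were higher and 4 lower (all genes 7.05% and 10.2%). With the line as a block 2 passed, because Ak4 fell (-1.78, adjusted p = 0.0095). Without the untreated libraries of lines 1 and 2, 0 passed in Direct 24 h and 0 in Indirect day 1, where limma also called 0 of all genes. In Indirect day 1, 1 member rose (all genes 0.831% higher, 0.477% lower), and by the second rule 6 were higher and 2 lower (all genes 10.2% and 10.4%). PAM day 1 gave 2 members that rose and 1 that fell (all genes 4.83% higher, 5.40% lower), and by the second rule 6 were higher and 4 lower (all genes 15.2% and 26.6%). With the line as a block 2 rose and 2 fell there, because Kdm3a passed. In PAM day 1 the median of all genes was -0.13 and in PAM day 2 it was -0.12, and after median-of-ratios scaling these were -0.01 and -0.02. That scaling moved the share of higher genes among all genes past the threshold in PAM day 1 from 47.2% (838 of the calls higher, 937 lower) to 59.8% (1011 higher, 680 lower).

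Among the carriers, Slc2a1 (ENSMUSG00000028645, GRCm38 chr4:119108711-119137983), the facilitative glucose importer known as GLUT1, stood above Untreated in every group but Direct 30 min. Its values in Untreated were 1996, 2094, 1729 and 2226 (lines 1 to 4). They were 4272, 4206 and 5415 (lines 1, 2 and 4) in PAM day 1, 4144, 5577 and 6039 in Indirect day 2, and 5331, 7982 and 8538 in PAM day 2. None of these 9 libraries overlapped Untreated. The log2 fold changes were 1.20 (SE 0.12, adjusted p = 0.00028) in PAM day 1, 1.37 (SE 0.14, adjusted p = 0.0002) in Indirect day 2 and 1.83 (SE 0.17, adjusted p = 0.00035) in PAM day 2, and all 3 kept their call when any 1 library was left out. Direct 24 h (2777, 2763 and 3916) and Indirect day 1 (2598, 2902 and 4108) also lay above the untreated range, with log2 fold changes of 0.63 (adjusted p = 0.022) and 0.65 (adjusted p = 0.025). In Direct 30 min only line 4, at 3139, lay above the untreated range.

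Slc16a3 (MCT4, ENSMUSG00000025161, GRCm38 chr11:120948480-120960868), which exports lactate, passed the threshold in both groups with medium present at collection and in no other comparison with Untreated. Untreated held 1572, 1774, 859 and 1499. Indirect day 2 held 2296, 3225 and 2974, and PAM day 2 held 3580, 4490 and 2400. All 6 libraries lay above the untreated range, with log2 fold changes of 1.03 (SE 0.24, adjusted p = 0.0094) and 1.29 (SE 0.29, adjusted p = 0.0072). Both calls were frail. Leaving out any 1 library ended the first (log2 0.80 to 1.17, adjusted p 0.0042 to 0.032) and 5 of 7 such fits ended the second (1.07 to 1.54, adjusted p 0.0033 to 0.025). With the line as a block the first was 0.80 (adjusted p = 0.0047), short of the minimum fold, and under quantile normalization, median-of-ratios scaling or no filter its adjusted p was 0.011 to 0.016. The value in PAM day 1 was 762 in line 1 and 1785 and 2025 in lines 2 and 4, a log2 fold change of 0.03.

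**Figure D2:**
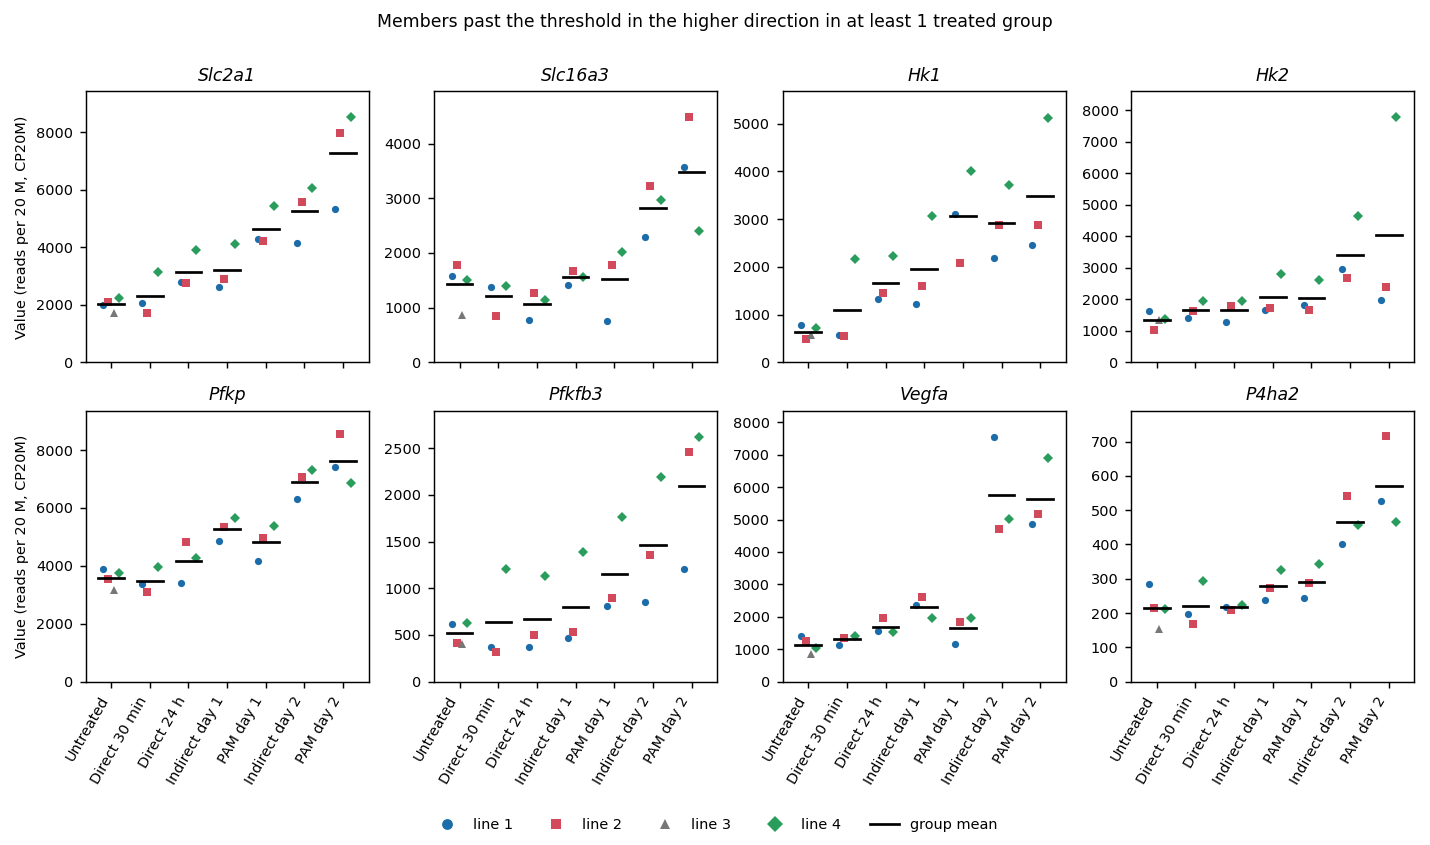
Values (reads per 20 M, linear axes from 0) of the members that rose after medium given at day 2, by group, with 1 point a library coloured by line and a bar at the group mean. Vegfa is between 4700 and 7548 in the 6 day 2 libraries and at most 2609 elsewhere, and Hk1 and Pfkfb3 are highest in line 4 in every treated group.

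Of the 13 glycolytic enzymes, Hk1 moved in the most comparisons. Hk1 (ENSMUSG00000037012, GRCm38 chr10:62268855-62379908) encodes the hexokinase that most tissues use to trap glucose. Its untreated values were 773, 494, 563 and 709. They were 1333, 1457 and 2221 in Direct 24 h, 1228, 1597 and 3055 in Indirect day 1 and 3116, 2087 and 4000 in PAM day 1. Across these 9 libraries of CAP from day 1 the lowest was 1228, the median 2087 and the highest 4000, all above Untreated, and the log2 fold change was 1.72 (SE 0.29, adjusted p = 0.00082), which held in all 13 fits that left out 1 library. By group it was 1.38 (adjusted p = 0.0059) in Direct 24 h, 1.54 (adjusted p = 0.013, not past the threshold) in Indirect day 1 and 2.24 (adjusted p = 0.0003) in PAM day 1. The call in Direct 24 h was lost in each of the 7 fits without 1 library (adjusted p 0.011 to 0.019). Values reached 2177, 2867 and 3705 in Indirect day 2 and 2460, 2870 and 5122 in PAM day 2, log2 fold changes of 2.19 (SE 0.21, adjusted p = 0.00014) and 2.40 (SE 0.26, adjusted p = 0.00044). In Direct 30 min, lines 1 and 2 stood at 561 and 553, inside the untreated range, and line 4 at 2155, and the difference of 0.48 did not pass (SE 0.44, adjusted p = 0.53).

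Hk2 (ENSMUSG00000000628, GRCm38 chr6:82725025-82774454), the inducible hexokinase, held 1636, 1009, 1346 and 1384 in Untreated and 2948, 2663 and 4651 in Indirect day 2. It rose there by 1.32 on the log2 scale (SE 0.22, adjusted p = 0.0018), with no overlap. In PAM day 2 the mean difference was the same size, 1.33, but the libraries spread from 1987 and 2393 to 7775 in line 4, and the test did not reach the threshold (SE 0.43, adjusted p = 0.034). Pfkp (ENSMUSG00000021196, GRCm38 chr13:6579768-6648777), the platelet-type phosphofructokinase of the committing step, went from 3898, 3555, 3151 and 3756 to 6295, 7082 and 7327 in Indirect day 2 and 7423, 8557 and 6870 in PAM day 2. Its log2 fold change was 0.94 (SE 0.09, adjusted p = 0.00018) in the former, just under the minimum fold, and 1.08 (SE 0.11, adjusted p = 0.00041) in the latter, where it was 0.997 and no longer called without PAM day 2 line 2. Pfkl, the liver-type isoform of the same enzyme, did not share this direction: after CAP from day 1 it was lower by the second rule (log2 fold change -0.44, adjusted p = 0.028).

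The other abundant enzymes of the pathway had smaller differences. None of Gpi1, Aldoa, Tpi1, Gapdh, Pgk1, Pgam1, Eno1, Pkm and Ldha passed the threshold in any comparison. Ldha, which makes lactate from pyruvate, came closest, at 21580, 23444, 19036 and 24018 in Untreated, 29167, 34828 and 35602 in Indirect day 2 and 33926, 42550 and 37902 in PAM day 2. These day 2 libraries did not overlap Untreated and gave log2 fold changes of 0.59 (adjusted p = 0.0044) and 0.79 (adjusted p = 0.0019), whereas PAM day 1 (18190, 21937 and 25776) spanned the untreated range. By the second rule Pkm and Eno1 were also higher in both day 2 groups and Gapdh in PAM day 2, and Gpi1, Aldoa and Pgk1 differed in none. Tpi1 was lower by the second rule after CAP from day 1 (lowest 8372, median 10098, highest 11206 of 9 libraries, beside 13660, 13622, 11126 and 13346 in Untreated), with a log2 fold change of -0.38 (SE 0.08, adjusted p = 0.0039). In PAM day 2 it stood at 13816, 18575 and 14191, above every untreated library, and the difference of 0.25 did not pass (adjusted p = 0.15). The second Aldoa row (ENSMUSG00000114515) held 37, 31, 28 and 24 in Untreated, 13, 10 and 11 in PAM day 1 and 13, 8 and 7 in PAM day 2. That row fell in both (log2 fold changes -1.32, adjusted p = 0.0041, and -1.61, adjusted p = 0.0036) while the main row did not pass.

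Summed over the 13 enzymes, glycolysis took 0.605% to 0.746% of each untreated library (median 0.740%, line 3 the lowest). The range was 0.617% to 0.701% in Direct 30 min, 0.649% to 0.729% in Direct 24 h, 0.696% to 0.725% in Indirect day 1 and 0.707% to 0.766% in PAM day 1, all of which overlapped Untreated. It was 0.873% to 0.913% in Indirect day 2 and 0.940% to 0.9999% in PAM day 2, above every library of the other groups.

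**Figure D3:**
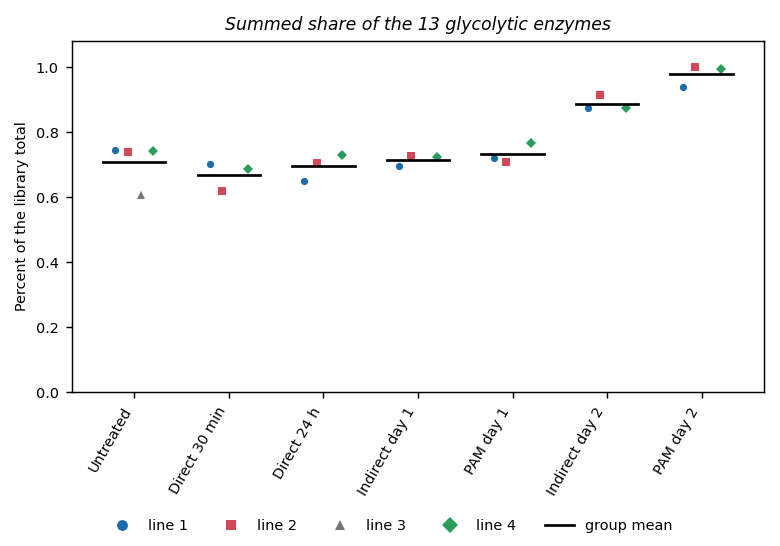
Summed value of the 13 glycolytic enzymes as a percent of the library total (linear axis from 0) in each of the 22 libraries, by group, with the group mean as a bar. The 6 libraries that received medium at day 2 lie between 0.873% and 0.9999%, and the other 16 at or under 0.766%.

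The flux regulators went both ways. Pfkfb3 (ENSMUSG00000026773, GRCm38 chr2:11471433-11554077) makes the fructose bisphosphate that activates phosphofructokinase. It held 620, 417, 403 and 623 in Untreated, 851, 1359 and 2191 in Indirect day 2 and 1211, 2459 and 2621 in PAM day 2, with no overlap. The rise was 1.43 on the log2 scale in Indirect day 2 (SE 0.31, adjusted p = 0.0063) and 1.97 in PAM day 2 (SE 0.29, adjusted p = 0.0014). The first was lost in 6 of 7 fits without 1 library (adjusted p up to 0.020) and with the line as a block (1.32, adjusted p = 0.016), and the second held in all 7. In PAM day 1 (807, 895 and 1758) it was 1.10 with an adjusted p of 0.015. Line 4 was the highest in every treated group, and in Direct 30 min it stood at 1206 beside 375 and 318 in lines 1 and 2. Pfkfb4, a second enzyme of this kind, was higher by the second rule only in PAM day 2 (1415, 2186 and 1640, beside 1037 to 1235 in Untreated, log2 fold change 0.63, adjusted p = 0.01).

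Pdk1 (ENSMUSG00000006494, GRCm38 chr2:71873224-71903858), the kinase that closes pyruvate dehydrogenase and so keeps pyruvate from mitochondrial oxidation, was lower after CAP. Untreated held 3875, 3078, 1869 and 2808, and PAM day 1 held 787, 1510 and 1099. It fell there by 1.36 on the log2 scale (SE 0.27, adjusted p = 0.005), with no overlap, although the call was kept in only 2 of 7 fits without 1 library (log2 -1.60 to -1.13, adjusted p 0.003 to 0.019), those without untreated line 3 and without PAM day 1 line 2, and was lost under median-of-ratios scaling (-1.24, adjusted p = 0.014). Across the 9 libraries of CAP from day 1 the values ran from 787 through a median of 1398 to 2183, overlapping untreated line 3, and the log2 fold change of -0.999 (SE 0.24, adjusted p = 0.0059) fell just short of the minimum fold. Without untreated line 3 it was -1.20 and passed. PAM day 2 spread widely, at 1378 and 1689 and, in line 4, 360, with a log2 fold change of -1.58 (SE 0.51, adjusted p = 0.033). Indirect day 2 (1369, 1917 and 955) gave -1.05 (SE 0.28, adjusted p = 0.017), which passed with the line as a block (-1.25, adjusted p = 0.006).

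**Figure D4:**
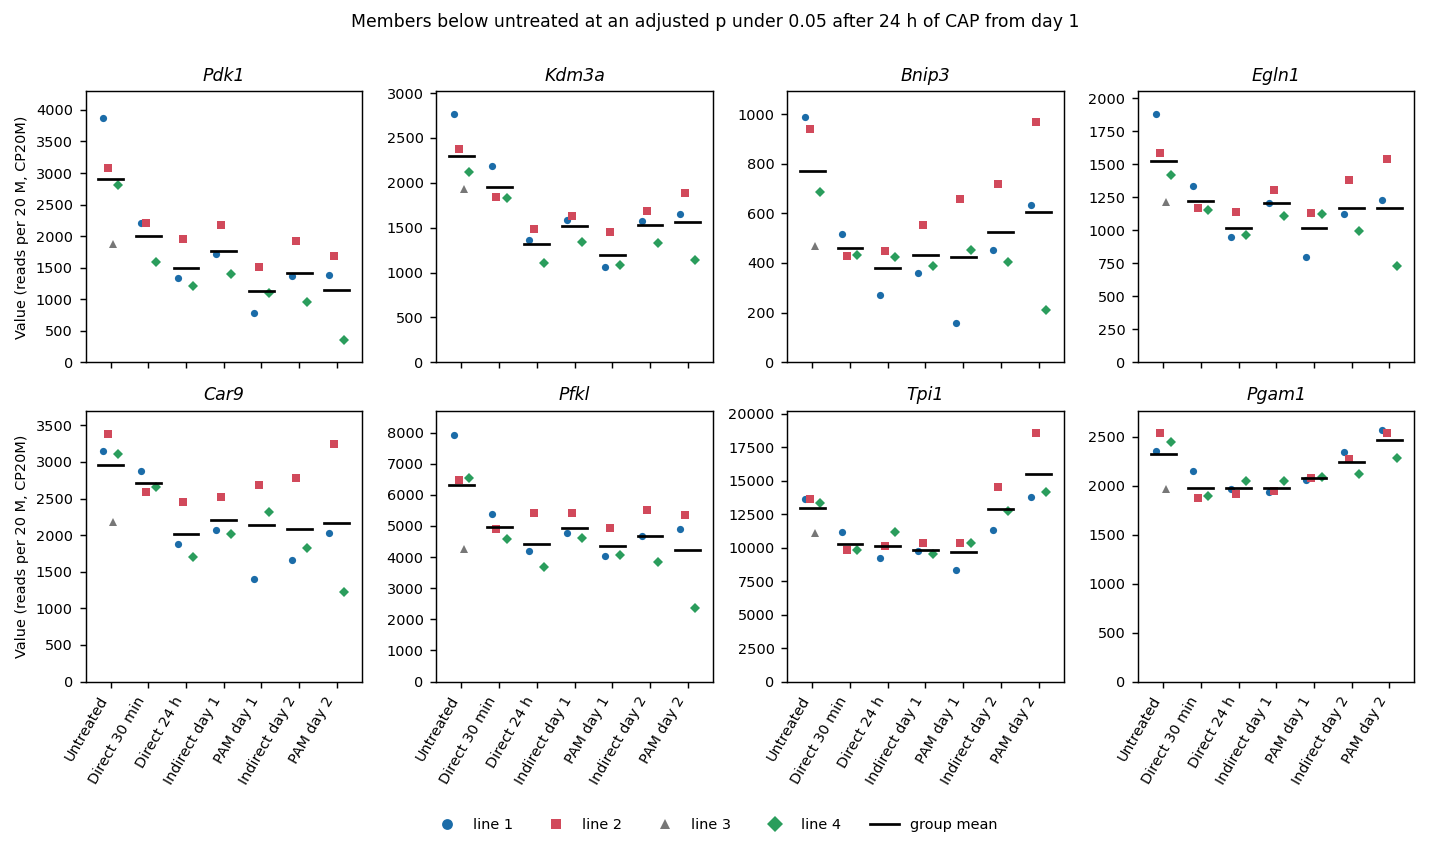
Values (reads per 20 M, linear axes from 0) of the 8 members that were below Untreated at an adjusted p under 0.05 after 24 h of CAP from day 1, by group, with 1 point a library coloured by line and a bar at the group mean. Pdk1 falls from 1869 to 3875 in Untreated to 787 to 1510 in PAM day 1, and untreated line 3 is the lowest untreated library in all 8 panels.

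Of the oxygen sensing genes, none passed the threshold. Hif1a, the oxygen-regulated HIF subunit, varied little in Untreated (3713, 3762, 3954 and 3551). It stood at 4385, 6248 and 5415 in Indirect day 2 and 6087, 8243 and 7080 in PAM day 2, above every untreated library. The log2 fold changes were 0.50 (adjusted p = 0.0088) and 0.92 (SE 0.11, adjusted p = 0.00065), under the minimum fold (1.02 and past it in PAM day 2 under median-of-ratios scaling), and Indirect day 1 gave 0.39 (adjusted p = 0.017). Egln1, the main prolyl hydroxylase that marks HIF for destruction, was lower by the second rule after CAP from day 1 (799 to 1307 with a median of 1124, beside 1879, 1588, 1215 and 1417), with a log2 fold change of -0.49 (SE 0.13, adjusted p = 0.01). Egln3, a hydroxylase that HIF itself induces, differed in no comparison by either rule.

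Among the 12 hypoxia targets, Vegfa (ENSMUSG00000023951, GRCm38 chr17:46016993-46032369), the growth factor that draws in blood vessels, showed the steepest rise. Untreated held 1394, 1257, 844 and 1024. Indirect day 2 held 7548, 4700 and 5010, and PAM day 2 held 4848, 5159 and 6908. All 6 lay far above the untreated range, with log2 fold changes of 2.34 (SE 0.21, adjusted p = 0.00012) and 2.33 (SE 0.19, adjusted p = 0.00032), each kept in 7 of 7 fits without 1 library. Indirect day 1 (2353, 2609 and 1959) also rose, by 1.05 on the log2 scale (SE 0.18, adjusted p = 0.0095). That call was lost in all 7 fits without 1 library (adjusted p 0.011 to 0.028), under quantile normalization and median-of-ratios scaling, and with the line as a block (0.91, adjusted p = 0.0063). In PAM day 1 (1158, 1853 and 1956) line 1 lay inside the untreated range and the difference of 0.54 did not pass (adjusted p = 0.084).

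P4ha2 (ENSMUSG00000018906, GRCm38 chr11:54100095-54131665), a catalytic subunit of the enzyme that hydroxylates collagen prolines, was lowly expressed, at 284, 216, 152 and 211 in Untreated. It stood at 401, 540 and 457 in Indirect day 2 and 527, 717 and 467 in PAM day 2, with no overlap. The rises were 1.13 (SE 0.21, adjusted p = 0.003) and 1.41 (SE 0.23, adjusted p = 0.002) on the log2 scale. The first was lost in 3 of 7 fits without 1 library (log2 0.98 to 1.27), those without untreated line 3 and without Indirect day 2 line 2 or line 4, and with the line as a block (0.98, adjusted p = 0.012), while the second held in all 7. Its sister subunit P4ha1 was higher in both groups by the second rule, with log2 fold changes of 0.62 and 0.75. Ddit4, an inhibitor of mTOR signalling, was higher by the second rule in every comparison with Untreated but Direct 30 min. Against 2151, 1811, 1946 and 1905 in Untreated, the 9 libraries of CAP from day 1 lay between 2394 and 2648, with a log2 fold change of 0.36 (SE 0.06, adjusted p = 0.001), and Indirect day 2 (3377, 3631 and 3668) and PAM day 2 (2953, 3360 and 4291) reached 0.87 and 0.84.

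Other hypoxia targets were lower or did not differ. Kdm3a, a histone demethylase, was the most regular of the lower genes, at 2763, 2377, 1926 and 2120 in Untreated and between 1062 and 1629 (median 1365) in the 9 libraries of CAP from day 1, with no overlap. The log2 fold change was -0.78 (SE 0.13, adjusted p = 0.00096), and it was -0.94 (SE 0.15, adjusted p = 0.002) in PAM day 1, which passed with the line as a block (-1.02, adjusted p = 0.0067). Bnip3, which marks mitochondria for removal, was lower by the second rule after CAP from day 1 (lowest 157, median 425, highest 658, beside 988, 938, 469 and 687), with a log2 fold change of -0.94 (SE 0.31, adjusted p = 0.029). Car9, a carbonic anhydrase of the cell surface, was lower by the same rule at -0.49 (adjusted p = 0.032). Bnip3l, Ankrd37, Ndrg1, Mxi1 and Ak4 passed neither rule in any comparison, although with the line as a block Ak4 fell after CAP from day 1 and in Direct 24 h, as given above. For Ndrg1, line 2 held 22157, 24769, 19929, 26691 and 26317 in the 5 groups other than Untreated and Direct 30 min, the highest of its group each time, although line 4 was close in PAM day 1 (19629) and line 1 was the highest in Untreated (16815, beside 10318 in line 2). Ak4 was erratic even in Untreated, at 511, 602, 88 and 796.

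Treated groups were also tested directly against each other, with 3 libraries a side. Exposure lasted 24 h in the Indirect and PAM groups of both days. Between those days, the age of the medium, the age of the organoids at exposure and the last day in fresh medium differ together. These cannot be told apart. Indirect day 2 against Indirect day 1 gave 12 members at an unadjusted p under 0.05, beside 3906 of all 17987 genes. By limma 0 members passed the threshold (all genes 0.0111%) and 4 were higher by the second rule (all genes 3.37%). These were Vegfa at 1.29 (SE 0.20, adjusted p = 0.028), Slc16a3 at 0.86 (SE 0.14, adjusted p = 0.033), P4ha1 at 0.76 (SE 0.12, adjusted p = 0.031) and Ddit4 at 0.54 (SE 0.08, adjusted p = 0.024), all on the log2 scale. With the line as a block, 1 member passed the threshold, Vegfa at 1.29 (adjusted p = 0.00014). The same step for PAM gave 15 members at an unadjusted p under 0.05, beside 4651 of all 17354 genes. It gave 0 members by either rule (all genes 0% and 0%), with Vegfa at 1.79 (SE 0.24, adjusted p = 0.0503), P4ha2 at 0.96 (adjusted p = 0.066) and Slc16a3 at 1.27 (adjusted p = 0.11). Hk1 differed by 0.16 between PAM day 2 and PAM day 1 (SE 0.33, adjusted p = 0.79). Direct 24 h against Direct 30 min gave 0 members by either rule (all genes 0% and 0%), and PAM day 1 against Direct 24 h gave 0 (all genes 0% and 0.258%). In the former, 5 members had an unadjusted p under 0.05, beside 3774 of all 17668 genes. In the latter 5 did, beside 1773 of all 17072 genes. A p that misses the threshold with 3 libraries a side does not show that these groups were alike.

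Of 88 further genes of the same pathways (other glycolytic and gluconeogenic enzymes, other oxygen sensors and other hypoxia targets), 77 were tested for CAP from day 1, where 3 rose and 0 fell. These shares of 3.9% and 0% stood beside 4.27% and 2.07% of all genes. By the second rule 16 were higher and 19 lower (20.8% and 24.7%, beside 14.8% and 18.7% of all genes). The 3 were Pcx, pyruvate carboxylase of gluconeogenesis (1185 to 1935 in Untreated, 2693 to 5234 after CAP, log2 fold change 1.25, SE 0.18, adjusted p = 0.00036), Ldhd, which oxidises D-lactate (268 to 498, then 797 to 1898, 1.60, SE 0.25, adjusted p = 0.00058), and Arnt2, a partner of HIF alpha subunits (254 to 442, then 597 to 1209, 1.47, SE 0.20, adjusted p = 0.00027). In none of the 3 did the 9 treated libraries overlap Untreated. In Indirect day 2, 6 rose and 3 fell of 74 tested (8.1% and 4.1%, beside 6.20% and 5.71% of all genes). In PAM day 2, 6 rose and 6 fell of 75 (8.0% and 8.0%, beside 6.82% and 10.5%). These shares were near those of all genes. Their medians were 0.02 and 0.05 on the log2 scale there, beside 0.39 and 0.50 for the members.

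Other cell markers moved alongside the members. The 5 stem cell markers, all detected, summed to 32557 to 38876 in Untreated, 20274 to 32015 in Direct 30 min, 5313 to 15040 in Direct 24 h and Indirect day 1, 1306 to 2640 in PAM day 1, 2703 to 3953 in Indirect day 2 and 757 to 2747 in PAM day 2. The 5 cycling markers went from 19624 to 25847 in Untreated to 7734 to 9559 in Indirect day 2 and 3932 to 7796 in PAM day 2. The sum of the 5 goblet markers lay between 17497 and 46618 in PAM day 2, below the 75553 to 132265 of Untreated. Fcgbp made up most of it (58735 to 107091 in Untreated, 12961 to 33616 in PAM day 2). Tff3 (6486 to 8265, then 1772 to 4546) and Agr2 (2515 to 3331, then 149 to 1206) also lay below Untreated there, whereas Muc2 and Clca1 overlapped it. The 5 Paneth cell markers went from 29289 to 40556 in Untreated to 4276 to 18616 in PAM day 1, 17718 to 28031 in Indirect day 2 and 4797 to 21111 in PAM day 2. The sum of the 8 enterocyte markers went from 105845 to 125096 in Untreated to 141058 to 188787 in PAM day 2, but they did not move together. Alpi went from 18593 to 32923 up to 55134 to 95329. Apoa1 (12080 to 16137, then 2379 to 11796) and Fabp2 (7599 to 11955, then 1064 to 7255) lay below Untreated. The remaining enterocyte markers each overlapped or straddled the untreated range. The sum of 10 epithelial markers was 139920 to 151337 in Untreated and higher in every library of Direct 24 h (172416 to 198997), Indirect day 1 (155071 to 178414), PAM day 1 (191199 to 197332), Indirect day 2 (155288 to 174503) and PAM day 2 (161306 to 209730). By the second rule, 5 of these 10 were higher and 2 lower after CAP from day 1. In PAM day 1, Krt8 was 50966 to 56242 (28424 to 33158 in Untreated), whereas Epcam was 11504 to 13827 (15909 to 17187 in Untreated). The 10 markers of other tissues summed to 30 to 128 in all libraries. The part of these shifts in the members' differences was not tested. Untreated line 3 was the lowest untreated library for 29 of 33 members, and PAM day 2 line 4 was the lowest of its group for 20 members and the highest for 8.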

How the data were processed

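Per the labels, the authors prepared libraries with the Ovation SoLo kit, whereas the study's methods name this kit or NEBNext without saying which libraries, and paired 100-base reads were sequenced. Their processing notes name Trimmomatic 0.36, STAR 2.5.3a, HTSeq 0.9.1 and GRCm38.p4/mm10. The deposited table gives each gene a score in CP20M, which is the count of reads scaled by the authors to 20 M a library and rounded up. The study's legends describe CP20M as also divided by gene length, but every deposited library sums to about 20 M, so the score was treated as scaled reads without a length term, and no count model was used.

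Scores were taken as log2(score + 1) and fitted with limma 3.58.1 (lmFit and eBayes with trend) in R 4.3.3, for genes with a score of at least 10 in at least 3 fitted libraries. All genes were tested and Benjamini-Hochberg adjusted together, with the study's threshold of 0.01 and a log2 fold change of 1. On data made with known answers, 200 of 200 changed genes were recovered for CAP from day 1 (1 false call, 17864 genes). The made libraries were independent, with no line effect, the same set dispersion for every gene and large changes in well expressed genes only. This checks that the code runs as meant and does not measure power or false calls in the real libraries. Estimated depths of 20.0 to 28.68 M reads carry an error of up to 6.45%, and they limit the members less than the lines do. Lines pair the treated libraries, because each line is 1 mouse: all 45 same-line pairs of treated libraries correlated above 0.1, beside 9 of 90 different-line pairs. With Untreated the pairing was less clear: 15 of 18 same-line pairs did, but so did 19 of 54 different-line pairs, the highest at 0.59. The methods of the study name no block, so the fit with the line as a block is an alternative. The 33 members and the other lists were chosen with earlier results of these data known. Named genes are all members, and those of the 88 other pathway genes past the threshold for CAP from day 1. Windows were searched in GENCODE vM21 transcripts and promoters in RefSeq sequences. Figures used Python 3.11.15 and matplotlib 3.10.9. Alternatives were other scalings (quantile, median of ratios), the block, a pseudocount raised to 10, dropping the filter, a joint fit of every group, adjusted p under 0.05 alone, leaving out each library and, chosen after the data were seen, leaving out the untreated libraries of lines 1 and 2.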

Additional observations from a re-analysis of the deposited data

Results flagged for a closer look

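In Untreated, line 3 stood apart from the other lines for Aldoa (16207 beside 19568, 19861 and 20001) and for Tpi1 (11126 beside 13660, 13622 and 13346). The gap to the nearest library was 0.886 and 0.876 of the group's range, past Dixon's critical value for 4 values. Chance passes this value in about 1 of 20 groups, and 2 of 33 members passed it.

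Between Indirect day 2 and Indirect day 1 the tested differences, at an adjusted p under 0.05 by limma, were 1.29 for Vegfa, 0.86 for Slc16a3, 0.76 for P4ha1 and 0.54 for Ddit4 on the log2 scale, each higher in all 3 day 2 libraries than in any day 1 library.

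Tpi1 lay below the whole untreated range in the 3 PAM day 1 libraries and above it in the 3 PAM day 2 libraries, a difference of 0.67 on the log2 scale that did not pass between the groups (limma, adjusted p = 0.072).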

How the results depend on the processing

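No member changed sign of a called value under any alternative, and 4 untreated libraries behind every comparison limit what can be told. Counts of members past the threshold moved as follows. For the replicate block and the fit of all groups, the matching counts over all genes are not given. Those member counts show which calls moved and nothing particular to the members. With the replicate block (the line) they were 4 for CAP from day 1, 2 for Direct 24 h, 0 for Indirect day 1, 4 for PAM day 1 (Kdm3a gained), 5 for Indirect day 2 (Slc16a3, Pfkfb3 and P4ha2 lost, Pdk1 gained), 7 for PAM day 2 and 1 for Indirect day 2 against day 1. Of 363 results of single members, 352 kept their call, 7 were gained and 4 lost. At an adjusted p under 0.05 alone the counts were 14 for CAP from day 1, 7 for Direct 24 h, 8 for Indirect day 1, 10 for PAM day 1, 16 for Indirect day 2, 18 for PAM day 2 and 4 for Indirect day 2 against day 1. In one fit of all groups they were 0 for Direct 24 h, 1 for Indirect day 2 against day 1 and 1 for PAM day 2 against day 1 (Vegfa in both). Quantile normalization and median-of-ratios scaling each gave 0 for Indirect day 1. Without the untreated libraries of lines 1 and 2, chosen after the data were seen, the counts were 0 for CAP from day 1 (0 also with the block), 0 for Direct 24 h, 0 for Indirect day 1 and 0 for PAM day 2. This alternative leaves 2 untreated libraries.

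Leaving out 1 library at a time gave 1 to 2 members for CAP from day 1, 0 to 0 for Direct 24 h and for Indirect day 1, 2 to 4 for PAM day 1, 4 to 7 for Indirect day 2 and 5 to 7 for PAM day 2. Over all genes the same fits called 651 to 1309, 34 to 377, 25 to 110, 1134 to 1668, 1357 to 2185 and 2201 to 2946, in that order. Across all comparisons, leaving out 1 library kept 2555 of 2607 calls of single members, with 41 lost and 11 gained. A pseudocount of 10 kept all 363 results of single members, no filter 362, quantile normalization 361, median-of-ratios scaling 359 and one fit of all groups 355.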
